A study of Homo sapiens with 6 samples.

Results

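MHC class I antigen presentation was followed through 9 genes, taken by symbol from the deposited table: HLA-B, HLA-C, HLA-E, B2M, TAP1, TAP2, TAPBP, PSMB8 and PSMB9. They are 9 of the 23002 genes in the file, and all 9 were expressed highly enough to be tested. The samples were U251 cells, an established human glioblastoma line, made into stable lines with a lentivirus and puromycin selection. The 3 sh-NC samples carried a non-targeting control lentivirus and the 3 sh-TRAF2 samples a lentivirus that knocks down TRAF2, an adaptor and ubiquitin ligase of TNF receptor signalling. No TNF-α treatment is named for these samples, and which of the study's TRAF2 hairpins was sequenced is not given in the sources used here. Loss of TRAF2 and other effects of that hairpin therefore cannot be told apart.

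Class I molecules show fragments of a cell's own proteins at its surface, where cytotoxic T cells and natural killer cells read them. A heavy chain (such as HLA-B, HLA-C or the more conserved HLA-E and HLA-F) pairs with β2-microglobulin, the product of B2M. The peptides are cut by the proteasome, in which the interferon-inducible subunits encoded by PSMB8, PSMB9 and PSMB10 can replace the constitutive PSMB5, PSMB6 and PSMB7. TAP1 and TAP2 form the pump that carries peptides into the endoplasmic reticulum, and tapasin (TAPBP) holds the empty heavy chain beside it. Most of these genes lie in the major histocompatibility complex and respond to interferon and NF-κB in many cell types. HLA-E is the exception in function, since it mainly presents leader peptides of the other heavy chains to an inhibitory receptor of natural killer cells.

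Of the 9 genes, 6 rose after TRAF2 knockdown, 1 fell and 2 did not pass the test. A gene was called at a Benjamini-Hochberg adjusted p under 0.05 from limma, a moderated linear model, on log2(FPKM + 0.1) over 11870 genes. FPKM scales fragments by gene length and library size, so that levels can be compared between genes, and the added 0.1 slightly understates fold changes of low genes. TAP1 rose most (log2 fold change 0.56), followed by HLA-B (0.49), PSMB8 (0.28), TAP2 (0.28), HLA-C (0.19) and B2M (0.11). HLA-E fell by 0.19 on the log2 scale. TAPBP (-0.004) and PSMB9 (0.22) did not pass. Among all genes tested 23.7% were called higher and 20.9% lower, 44.6% in all, against 6 higher and 1 lower of these 9. The median log2 fold change was 0.22 over the 9 genes and 0.02 over all genes. None of the 9 reached the study's fold threshold, an absolute log2 fold change above 1 together with the adjusted p, which 1.72% of all genes did. The groups did not overlap for 5 of the 9 genes, against 55.5% of all genes tested. In bulk samples fewer cells making a transcript and less of it per cell cannot be told apart.

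The samples were sequenced to a similar depth. The reads behind the FPKM values, recovered from their step size, came to between 33999558 and 36823562 per sample on all genes. Each of the 9 genes had between 498 and 45599 reads in every sample. TRAF2 itself had an FPKM of 15.07, 18.38 and 15.35 in sh-NC replicates 1, 2 and 3, and of 3.26, 3.22 and 3.33 in the sh-TRAF2 replicates. All 3 knockdown libraries lay below all 3 controls. Of 8 glioma markers in the file 6 were tested, with VIM at a mean of 1242 FPKM in sh-NC but the astrocyte marker GFAP at 0.467 FPKM and OLIG2 at 1 to 11 reads. Of 8 leukocyte markers in the file 2 were tested, and the list summed to between 28.6 and 29.3 FPKM in sh-NC and between 26.0 and 29.4 in sh-TRAF2. PTPRC, the defining leukocyte marker, had at most 1 read in any sample, as did CD74, the class II invariant chain. CIITA, the master regulator of MHC class II, had 2 to 15 reads.

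The start regions of these genes were read from RefSeq (GRCh38.p14), because several of the genes changed together. Windows reaching from 250 bases before to 50 bases after each start were found for 8 of the 9 genes, in 10 windows, since TAP1 and PSMB8 have 2 annotated starts each. HLA-E, the gene that fell, was not analysed here, so the motif counts cover the other 8 genes. Both strands were searched for GAAANNGAAA, the core of the interferon-stimulated response element (ISRE), and for GGGNNTTNCC, a form of the NF-κB site. The ISRE core was present in 5 of the 10 windows, belonging to B2M, TAP1, TAP2, TAPBP and PSMB8, against 3.57% of all 35116 windows. The NF-κB form was present in 4 windows, those of HLA-B, B2M, TAP1 and TAPBP, against 5.68% of all windows. TTCNNNGAA, the GAS element of interferon-γ response, was found in 2 windows (PSMB8 and TAP1, 7.66% of all windows), TGACGT in 1 (PSMB8, 7.98%) and CCAAT in 5 (34.6%). The ISRE pairs overlap one another by 4 bases, and a match is a description of letters, not a bound site.

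The sequences before the RefSeq starts that carry these letters are shown for HLA-B and for the peptide pump genes TAP1 and TAP2, and for B2M and TAPBP, which differed in their change. The sequences are written in the direction of the gene, with ISRE cores and NF-κB forms in capitals on either strand. GENCODE release 29 places the outermost starts of TAP1 and TAPBP farther out than RefSeq does. The ISRE core of PSMB8, which spans an annotated start, is not shown.
TAP1, chr6:32853816-32853845, minus strand: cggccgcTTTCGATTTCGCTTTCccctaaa
TAP1, chr6:32853757-32853786, minus strand: gcctgttcctGGGACTTTCCgagagccccg
TAP2, chr6:32838778-32838807, minus strand: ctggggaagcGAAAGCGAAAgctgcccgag
TAPBP, chr6:33314115-33314144, minus strand: taaccagagcGGGGATTTCCaccgcccctc
TAPBP, chr6:33314079-33314108, minus strand: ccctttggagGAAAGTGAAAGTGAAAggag
HLA-B, chr6:31357189-31357429, minus strand: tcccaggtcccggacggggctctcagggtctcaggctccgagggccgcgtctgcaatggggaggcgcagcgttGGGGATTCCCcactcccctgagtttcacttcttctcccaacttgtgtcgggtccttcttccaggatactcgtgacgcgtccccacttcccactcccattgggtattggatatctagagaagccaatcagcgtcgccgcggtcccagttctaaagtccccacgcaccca
B2M, chr15:44711267-44711486, plus strand: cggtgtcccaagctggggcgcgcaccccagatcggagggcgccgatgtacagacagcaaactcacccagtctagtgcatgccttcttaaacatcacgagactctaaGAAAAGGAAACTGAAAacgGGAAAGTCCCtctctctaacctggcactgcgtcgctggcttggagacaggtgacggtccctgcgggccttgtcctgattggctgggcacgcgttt

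The matches are listed here beside the log2 fold changes, and no link between matches and changes was tested. TAP1, B2M and TAPBP each hold an ISRE pair and an NF-κB form upstream, and their log2 fold changes were 0.56, 0.11 and -0.004. HLA-B holds the NF-κB form, 177 to 168 bases upstream of its start, and no GAAANNGAAA in its window. HLA-C holds neither pattern, and both genes carry CCAAT boxes 56 to 52 bases upstream. Only these exact letters were searched, so an interferon or NF-κB site with other letters would be missed. TAP1 and PSMB9 are read in opposite directions from starts 488 bases apart, and the TAP1 matches of the outer start lie in that stretch, whereas its GAS match belongs to the inner start and lies outside it.

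**Figure D1:**
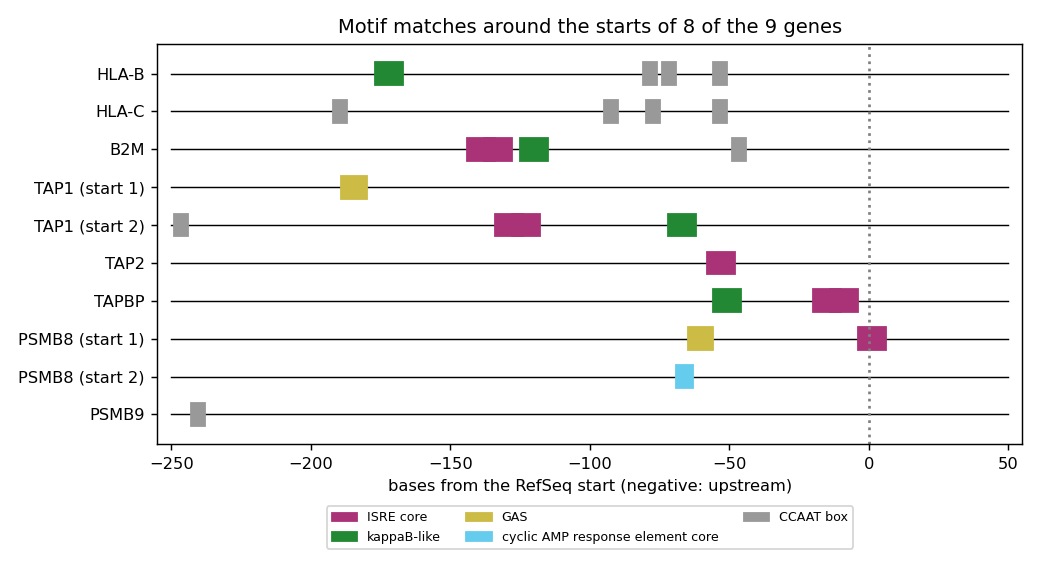
Positions of the 5 motifs in the windows around the RefSeq starts of 8 of the 9 genes, in bases from the start (dotted line). TAP1, B2M and TAPBP each show ISRE cores beside an NF-κB form, HLA-B shows the NF-κB form and 3 CCAAT boxes, and the PSMB9 window shows a CCAAT box alone.

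The classical heavy chains were compared first. HLA-B had an FPKM of 57.5, 57.2 and 59.9 in sh-NC replicates 1, 2 and 3, and of 72.7, 88.4 and 84.4 in sh-TRAF2 replicates 1, 2 and 3. Every knockdown sample lay above every control. The mean was higher by 40.5%, which is 0.49 ± 0.068 (SE) on the log2 scale (limma adjusted p = 7.19e-04). The two-sided exact permutation test over the 20 assignments of the samples gave p = 0.1, the smallest that 3 samples against 3 allow. That bound applies to every gene below whose groups did not overlap.

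HLA-C changed less. Its FPKM was 50.3, 50.4 and 55.4 in sh-NC and 54.9, 61.3 and 62.1 in sh-TRAF2. The groups overlapped, because sh-NC replicate 3 lay above sh-TRAF2 replicate 1. The mean was higher by 14.1%, or 0.19 ± 0.059 (SE) in log2 units (limma adjusted p = 0.0305). HLA-B and HLA-C are near relatives, and in GENCODE release 29 (GRCh38) the model of HLA-B (chromosome 6, 31269491 to 31357188, minus strand) overlaps that of HLA-C (31268749 to 31272130, minus strand). How reads matching both were shared out is not given in the sources used here, so the split between them is uncertain.

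HLA-E moved the other way. It had an FPKM of 89.6, 91.7 and 89.8 in sh-NC and of 75.7, 82.2 and 79.5 in sh-TRAF2. Every knockdown sample lay below every control, and the log2 difference was -0.19 ± 0.039 (SE), with a 95% interval from -0.28 to -0.10 (limma adjusted p = 0.00453). HLA-E lies on chromosome 6, from 30489467 to 30494205, and its model overlaps no other gene (GENCODE release 29, GRCh38). In sh-NC HLA-E had the highest FPKM of the 3 heavy chains among the 9 genes. How reads matching both HLA-B and HLA-C were counted could alter their levels, so their order against HLA-E is uncertain. In sh-TRAF2 its values of 75.7 to 82.2 lay within the range of HLA-B, 72.7 to 88.4. The ratio of HLA-B to HLA-E, chosen after the values were seen, went from a geometric mean of 0.644 in sh-NC to 1.03 in sh-TRAF2, and its groups did not overlap.

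B2M, the light chain common to all class I molecules, was the most abundant of the 9 genes. Its FPKM was 409.6, 400.1 and 431.3 in sh-NC and 444.4, 448.4 and 448.7 in sh-TRAF2. All knockdown samples lay above all controls, but by little. The rise of the mean by 8.11% equals 0.11 ± 0.033 (SE) on the log2 scale (limma adjusted p = 0.024). B2M lies outside the major histocompatibility complex, on chromosome 15 from 44711487 to 44718877 (GENCODE release 29, GRCh38).

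**Figure D2:**
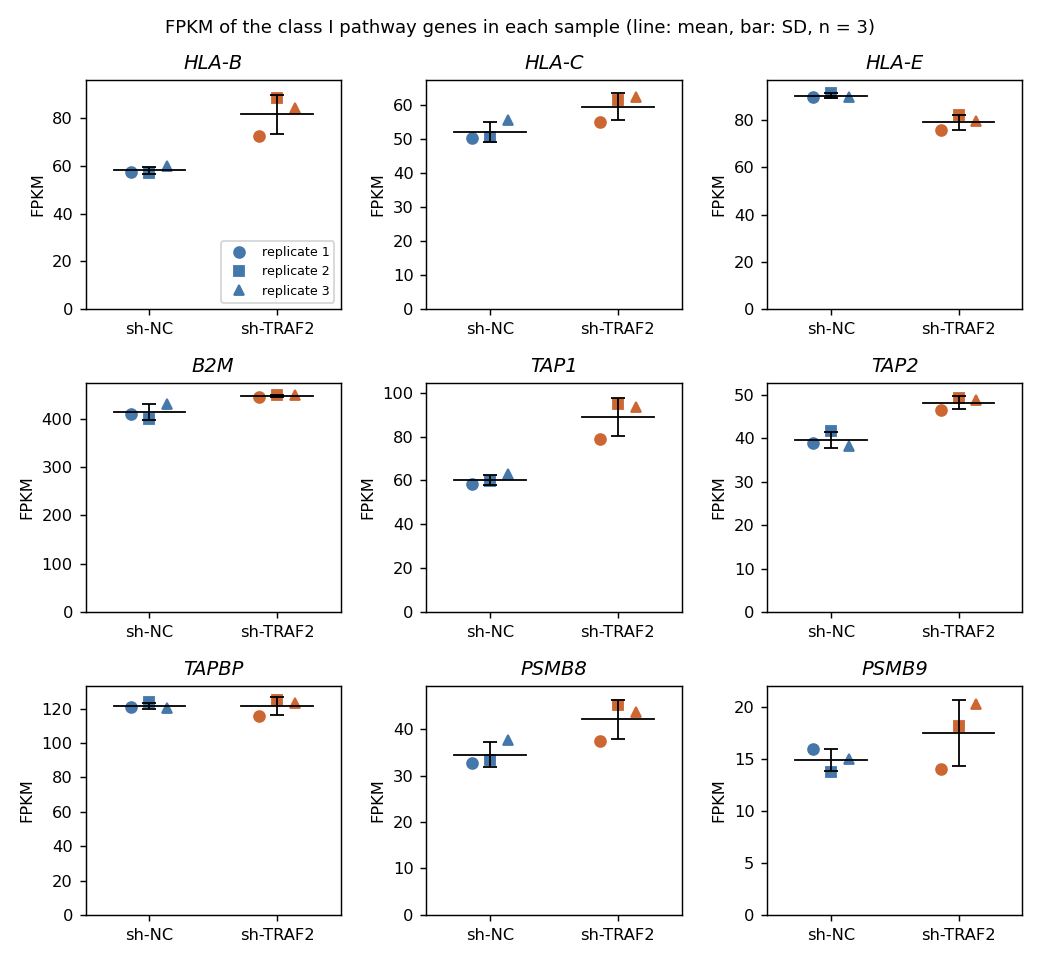
FPKM of each of the 9 genes in the 3 sh-NC and 3 sh-TRAF2 samples (symbols are replicates, lines are means and bars SDs, n = 3; axes start at 0). The groups are apart for HLA-B, HLA-E, B2M, TAP1 and TAP2, and overlap for HLA-C, TAPBP, PSMB8 and PSMB9.

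Heavy chains of a second list, fixed by name, widened this picture. HLA-F was at 4.70 ± 0.159 FPKM in sh-NC and at 6.95 ± 0.757 in sh-TRAF2 (SD, n = 3), a rise by 0.55 in log2 units (limma adjusted p = 0.00106). Of the 5 tested genes of this list 3 fell (60%), against 20.9% of all genes, and these are class I-like genes with other tasks. CD1D and AZGP1 were too low to be tested. FCGRT, the neonatal receptor for IgG, fell by 0.83 on the log2 scale (adjusted p = 3.05e-04) on 63 to 134 reads per sample. MR1, which shows vitamin B metabolites to T cells, fell by 0.55 (adjusted p = 0.00215). The fall of HFE, an iron regulator, was 0.51 (adjusted p = 0.00881, all from limma). HFE was named after its values were seen, since the rule took 4 genes of this list. HLA-B, HLA-C and HLA-F therefore rose, while HLA-E and these 3 class I-like genes fell.

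The balance of each heavy chain to B2M was read within each sample, which does not depend on how a library is scaled. HLA-E to B2M had a log2 ratio of -2.19, -2.13 and -2.26 in sh-NC and of -2.55, -2.45 and -2.50 in sh-TRAF2, a fall by 0.31. HLA-B to B2M rose by 0.37, from -2.83 ± 0.022 to -2.46 ± 0.14 (SD, n = 3). The groups were apart for both ratios (two-sided exact permutation test, p = 0.1, adjusted p = 0.125 over the family of 5 ratios that includes TAP1 to TAP2). HLA-C to B2M changed by 0.08 with overlapping groups (exact permutation test, p = 0.3). No ratio could pass a threshold of 0.05 in a design of this size.

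TAP1 showed the largest change of the 9 genes. Its FPKM was 58.35, 59.6 and 62.9 in sh-NC and 79.0, 94.7 and 93.3 in sh-TRAF2. All knockdown samples lay above all controls, and the mean was higher by 47.7%. In log2 units this was 0.56 ± 0.069 (SE), with a 95% interval from 0.40 to 0.71 (limma adjusted p = 3.79e-04). The TAP1 model (chromosome 6, 32845209 to 32853978, minus strand, GENCODE release 29, GRCh38) overlaps PSMB9 and PSMB8-AS1 on the other strand. Whether counting used the strand is not given in the sources used here, so some reads of this cluster are uncertain.

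TAP2, the partner of TAP1 in the peptide pump (chromosome 6, 32821833 to 32838780, minus strand), rose less. It had an FPKM of 38.9, 41.6 and 38.2 in sh-NC and of 46.4, 49.2 and 48.8 in sh-TRAF2. The groups did not overlap, with a log2 difference of 0.28 ± 0.045 (SE; limma adjusted p = 0.00149). Within samples the log2 ratio of TAP1 to TAP2 was 0.59, 0.52 and 0.72 in sh-NC and 0.77, 0.94 and 0.94 in sh-TRAF2. It was higher in every knockdown sample, by 0.28 on average (two-sided exact permutation test, p = 0.1, adjusted p = 0.125 over the 5 ratios).

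TAPBP, which encodes tapasin (chromosome 6, 33299694 to 33314387, minus strand), showed no detectable change. Its FPKM was 121.0, 123.6 and 120.4 in sh-NC and 115.6, 125.1 and 123.5 in sh-TRAF2, and the groups overlapped. The log2 fold change was -0.004 with a 95% interval from -0.09 to 0.08 (adjusted p = 0.941 from limma). A change of the size seen for TAP1 or HLA-B lies outside that interval.

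The immunoproteasome subunits did not move as one. PSMB8 had an FPKM of 32.7, 33.3 and 37.6 in sh-NC and of 37.3, 45.3 and 43.7 in sh-TRAF2. The groups overlapped narrowly, since sh-TRAF2 replicate 1 lay below sh-NC replicate 3. The log2 difference was 0.28 ± 0.081 (SE; limma adjusted p = 0.021). PSMB8 (chromosome 6, 32840717 to 32844703, minus strand) and PSMB9 (32844136 to 32859585, plus strand) overlap each other's models.

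PSMB9 was the least abundant of the 9 genes and, in sh-TRAF2, the most variable. It had an FPKM of 16.0, 13.8 and 15.0 in sh-NC and of 14.1, 18.2 and 20.3 in sh-TRAF2. Knockdown replicates 2 and 3 lay above all controls and replicate 1 lay among them. The coefficient of variation was 18.1% in sh-TRAF2 against 7.27% in sh-NC. The log2 fold change was 0.22 with a 95% interval from -0.06 to 0.50 (adjusted p = 0.182 from limma). The ratio of TAP1 to PSMB9, chosen after the values were seen, had a geometric mean of 4.05 in sh-NC and 5.12 in sh-TRAF2, and its groups did not overlap.

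PSMB10, the third inducible subunit, fell. Its mean was 55.2 ± 1.59 FPKM in sh-NC and 46.8 ± 2.78 in sh-TRAF2 (SD, n = 3), a log2 difference of -0.24 (limma adjusted p = 0.00552). Among the constitutive counterparts PSMB7 rose by 0.17 (adjusted p = 0.0138), PSMB5 fell by 0.12 (adjusted p = 0.0212), and PSMB6 was at 0.07 (adjusted p = 0.135, all from limma). The PSMB5 call was lost with eBayes without a trend and without sh-NC replicate 1 or 2 or sh-TRAF2 replicate 2 or 3 (adjusted p from 0.0517 to 0.0805 from limma). The PSMB7 call was lost with no filter, with eBayes without a trend and without sh-TRAF2 replicate 2 (adjusted p from 0.0514 to 0.0536 from limma). The ratio of each inducible subunit to the one it replaces took different directions. PSMB8 to PSMB5 had a geometric mean of 0.305 in sh-NC and 0.404 in sh-TRAF2, with separate groups. PSMB10 to PSMB7 went from 0.220 to 0.166, also with separate groups and in the other direction. PSMB9 to PSMB6 was 0.0770 and 0.0850 with overlapping groups. The two-sided exact permutation tests of these 3 ratios gave p = 0.1, 0.1 and 0.4, and adjusted p = 0.15, 0.15 and 0.4.

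**Figure D3:**
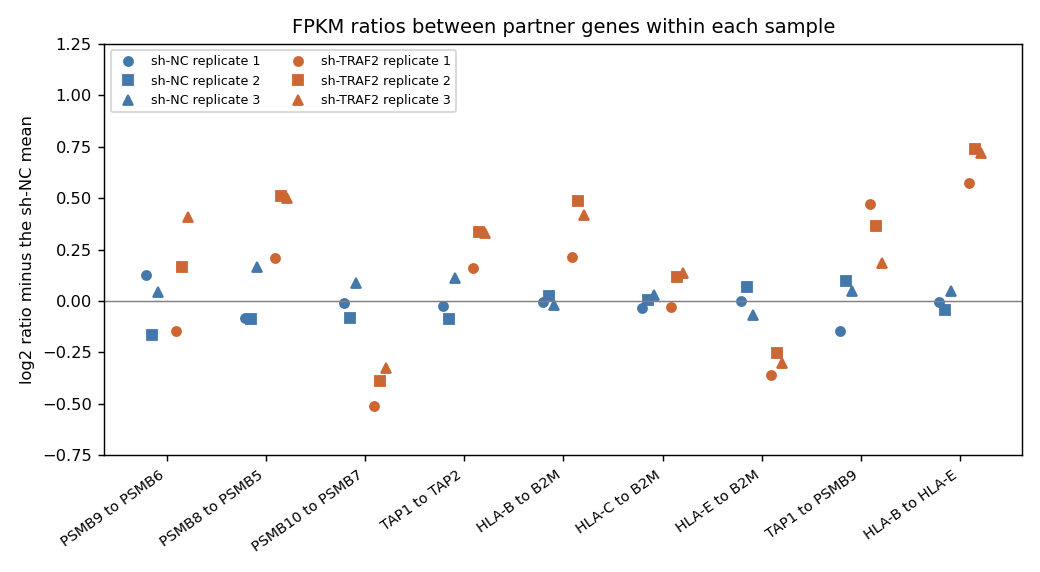
Log2 ratio of FPKM between partner genes in each sample, minus the mean of that ratio in sh-NC (symbols are replicates, colours are groups). HLA-B to HLA-E shows the largest shift, 0.68 on average, PSMB10 to PSMB7 and HLA-E to B2M lie below the controls, and PSMB9 to PSMB6 and HLA-C to B2M overlap them.

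**Figure D4:**
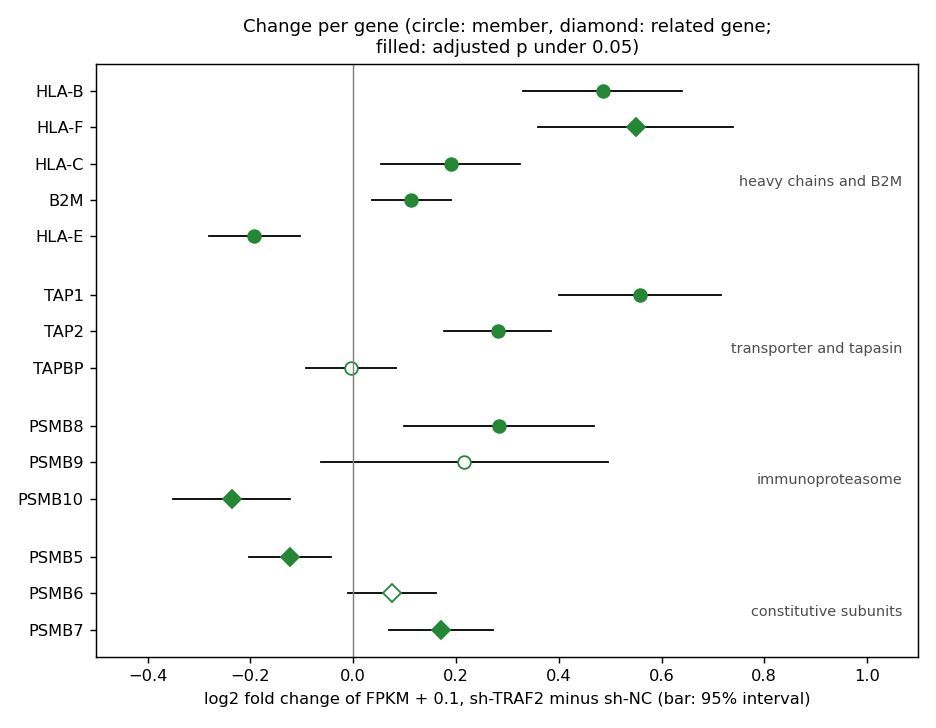
Log2 fold change of each gene with its 95% interval (bars), for the 9 genes (circles) and for HLA-F and 4 proteasome genes (diamonds), filled where the adjusted p was under 0.05. TAP1, HLA-F and HLA-B lie farthest to the right and HLA-E and PSMB10 farthest to the left.

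The order of levels shifted with these changes. In sh-NC, from highest to lowest mean FPKM, it was B2M, TAPBP, HLA-E, TAP1, HLA-B, HLA-C, TAP2, PSMB8 and PSMB9. Only TAP1 and HLA-B overlapped there among neighbours. In sh-TRAF2 TAP1 and HLA-B came before HLA-E, and the values of HLA-B overlapped those of both neighbours. The other places were the same in both groups. The places of HLA-B and HLA-C carry the uncertainty of their shared reads.

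One library held the same place in its group for all 9 genes. In sh-TRAF2 replicate 1 each of them was at its lowest within the knockdown group, a position this library held for 39.5% of all genes tested. The highest knockdown value ranged from 1.01 times this lowest one for B2M to 1.44 times for PSMB9. In sh-NC the lowest replicate was replicate 1 for 4 genes, replicate 2 for 3 and replicate 3 for 2. The same library was lowest in its group for NLRC5, the class I transactivator (2.40 FPKM against 3.51 and 4.21). Leaving out the lowest knockdown value of a gene must raise its log2 fold change, so that direction was fixed by the choice of library. Without sh-TRAF2 replicate 1 the log2 fold changes were 0.64 for TAP1, 0.57 for HLA-B, -0.16 for HLA-E and 0.03 for TAPBP. PSMB9 was called in that fit (log2 fold change 0.37, adjusted p = 0.00992 from limma), but not with all 6 samples (0.22, adjusted p = 0.182). The part of this library's position in the results was not tested.

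The calls differed in how firmly they held. HLA-B, TAP1, TAP2 and HLA-E were called with each of the 6 samples left out in turn. HLA-C, PSMB8 and B2M were not called without sh-NC replicate 1, sh-NC replicate 2, sh-TRAF2 replicate 2 or sh-TRAF2 replicate 3, with B2M also lost without sh-TRAF2 replicate 1. Leaving out any of those first 4 libraries thus left 3 genes called higher in place of 6. The fits with 5 samples also called fewer of all genes, from 36.1% to 42.6%. Across these fits the log2 fold change of B2M stayed between 0.09 and 0.14 and that of HLA-C between 0.16 and 0.25.

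The pattern of TAP1 over the 6 samples was shared by many genes. The correlations describe 6 points that fall into 2 groups and share their libraries. Pearson's r with TAP1 was 0.997 for HLA-B, 0.945 for TAP2, 0.937 for PSMB8, 0.929 for HLA-C, 0.891 for B2M, 0.719 for PSMB9 and 0.206 for TAPBP, and -0.803 for HLA-E. Outside the lists, the genes named as closest to TAP1 were CEP290 (0.999), NADK and SNX17 (0.997 each) and ACADVL (0.996). In all 462 of the 11870 genes reached 0.95.

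The other steps of peptide processing showed no common direction. Of 22 tested genes that trim, fold and load peptides and heavy chains, 6 rose (27.3%), 4 fell (18.2%) and 12 did not pass, near the 23.7% higher and 20.9% lower of all genes, with a median log2 fold change of 0.02. The count of 6 was 3 without sh-NC replicate 2, sh-TRAF2 replicate 1 or sh-TRAF2 replicate 2. The largest change was that of GANAB, a glucosidase that trims sugars on new glycoproteins, which rose from 41.6 ± 4.46 to 115.2 ± 3.57 FPKM (SD, n = 3; log2 fold change 1.47, adjusted p = 4.54e-06 from limma). CANX, the chaperone that first binds free heavy chains, fell by 0.32. HSPA5, the general chaperone of the endoplasmic reticulum, fell by 0.37, and UGGT1, which sends misfolded glycoproteins back to the chaperones, by 0.21. ERAP1 and ERAP2, which trim peptides, were at -0.14 (adjusted p = 0.0603) and 0.06 (adjusted p = 0.261) and were not called. CALR, which holds heavy chains in the loading complex, rose by 0.11, and PDIA3, its partner, was at -0.03 (adjusted p = 0.706, all from limma). ERAP1, ERAP2, CALR and PDIA3 were named after their values were seen.

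Of 24 tested regulators of class I genes, 8 rose (33.3%) and 6 fell (25%), against 23.7% and 20.9% of all genes, with a median of -0.03. The count of falls was 3 without sh-TRAF2 replicate 3. IRF2, an interferon regulatory factor that binds ISREs, fell from 3.40 ± 0.0451 to 1.64 ± 0.112 FPKM (SD, n = 3; log2 fold change -1.01, adjusted p = 4.72e-05 from limma). The non-canonical NF-κB genes NFKB2 and RELB rose by 0.38 and 0.32 on the log2 scale. RFXAP, a subunit of the RFX factor that binds class I and class II promoters, rose by 0.47, while its partners RFX5 (0.05) and RFXANK (-0.03) did not pass. NLRC5 had an FPKM of 2.79, 1.93 and 2.75 in sh-NC and 2.40, 3.51 and 4.21 in sh-TRAF2. Its groups overlapped and its log2 fold change of 0.41 was not called (adjusted p = 0.145 from limma). IRF1, abundant at a mean of 178.7 FPKM in sh-NC, was at -0.12 and not called (adjusted p = 0.152 from limma).

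Of the interferon receptors and their kinases and inhibitors, 12 were tested, of which 4 fell (33.3%) and 1 rose (8.33%), against 20.9% lower and 23.7% higher among all genes. JAK1, the kinase common to the interferon receptors, fell by 0.31, IL10RB, a receptor chain for type III interferon, by 0.37, and SOCS3, a feedback inhibitor, by 0.45. USP18, an interferon-induced gene that dampens type I interferon signalling, was the one that rose (log2 fold change 1.37, adjusted p = 0.00271 from limma).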

How the data were processed

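RNA-seq of 3 sh-NC and 3 sh-TRAF2 samples was analysed, and the sample titles gave the groups. Library preparation (VAHTS Universal V6 kit), sequencing and read processing were done by a service company. The deposited table gives FPKM per gene and sample, normalized by the authors to gene length and library size. The submitters' processing notes name HISAT2, HTSeq, DESeq2 and R 3.2.0 without their roles, and the build and annotation are not given in the sources used here.

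Of 23002 genes, the 11870 whose mean FPKM reached 0.5 were tested. The comparison was made on log2(FPKM + 0.1) with limma 3.58.1 in R 4.3.3 (lmFit, eBayes with a trend, two-sided) and Benjamini-Hochberg adjustment over those genes. Reads were recovered as whole numbers from the FPKM steps (tolerance 0.001 of a read), and 2643 genes seen in a lone sample have no certain count. Both steps were tested on simulated data. P-values measure the spread between these samples, which may be technical. Python 3.11.15, numpy 2.4.6, pandas 2.3.3 and matplotlib 3.10.9 were used for tables, permutation tests and figures.

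The genes and lists were chosen with earlier results of these data known, so no set test was made. Named are the 9 genes, TRAF2, PSMB10, NLRC5, IRF1, the 4 genes of each list with the smallest adjusted p (all where 4 or fewer were tested), and genes among the 5 outside the lists most like TAP1. Some results that this rule covers are not reported here. Any other gene was named after its values were seen. Alternatives were a pseudocount of 1 or 0.01, testing all genes, a stricter mean of 1 FPKM, scaling to equal totals, quantile normalization, a replicate block, no trend in eBayes, limma-voom on recovered reads (14130 genes averaging at least 10) and leaving out each sample.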

Additional observations from a re-analysis of the deposited data

How the results depend on the processing

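TRAF2 stayed between -2.33 and -2.01 on the log2 scale over 15 alternatives. HLA-B, TAP1, TAP2 and HLA-E were called in all 15, PSMB8 in 9, HLA-C in 8, B2M in 7, PSMB9 in 1 and TAPBP in 0. Of 135 comparisons of the 9 genes with an alternative, 113 kept their side of the threshold, 21 were weaker, 1 was stronger and 0 reversed. A change of sign was counted as reversed only where either fit was called. TAPBP, which was not called, changed sign without sh-NC replicate 2 (0.007) and without sh-TRAF2 replicate 1 (0.03). The count of genes called higher was 3 in place of 6 with no filter on low values, which adjusts over 23002 genes, and 3 with eBayes without a trend; for the latter the cause was not tested. With an absolute log2 fold change above 1 as well, 0 were higher and 0 lower. Without 1 sample, 3 to 6 were called higher and 1 lower. Quantile normalization, which left 4 called higher, put B2M at 0.06 and HLA-C at 0.13. The within-sample ratios moved by less than their spread between replicates. With limma-voom on recovered reads 6 were higher and 1 lower.

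The replicate number as a block left 6 genes called higher and 1 lower, and 5451 of all genes called in place of 5297. Same-numbered samples deviated together at correlations of -0.08, 0.07 and 0.07 for numbers 1, 2 and 3. For sh-NC replicates 2 and 3 the highest correlation was that with the same number. For sh-NC replicate 1 it was 0.07 with sh-TRAF2 replicate 3. Such weak correlations, in groups of 3, cannot decide whether the numbers pair the samples.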

Other observations

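Ligands read by natural killer cells or by T-cell checkpoints form another list. Of 13 tested, 6 rose and 2 fell, with a median log2 fold change of 0.17, against 23.7% higher and 20.9% lower among all genes. The 2 falls became 0 without sh-NC replicate 1 or sh-TRAF2 replicate 2, and 1 without sh-NC replicate 2 or sh-TRAF2 replicate 1 or 3. ULBP2, a stress ligand of the activating receptor NKG2D, rose from 9.27 ± 0.629 to 14.3 ± 0.487 FPKM (SD, n = 3; log2 fold change 0.62, adjusted p = 1.17e-04 from limma). MICA, another such ligand, rose by 0.29 on the log2 scale (adjusted p = 0.00214), and RAET1L by 0.79 (adjusted p = 0.00376), though RAET1L rests on 37 to 88 reads per sample. CD274, which encodes the checkpoint ligand PD-L1, rose from 90.6 ± 6.45 to 130.1 ± 7.67 FPKM (SD, n = 3; log2 fold change 0.52, adjusted p = 2.81e-04, all from limma).

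Of 60 tested genes of other function in the major histocompatibility complex, 19 rose (31.7%) and 6 fell (10%), against 23.7% and 20.9% of all genes, with a median of 0.12. DAXX, a histone chaperone whose gene lies beside the class II region, rose by 0.50, BRD2, a chromatin reader, by 0.28, and TUBB, a tubulin, by 0.23. MDC1, a DNA damage mediator, fell by 1.12. Among noncoding genes beside the 9 genes, HCP5 rose by 0.80 (adjusted p = 0.0114 from limma) on 49 to 122 reads per sample, while PSMB8-AS1, which overlaps PSMB8, PSMB9 and TAP1, was at 0.18 and HCG18 at -0.08, neither called.

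The MHC class II pathway had 3 tested genes of 15 named. IFI30, a lysosomal reductase, was at -0.22 (adjusted p = 0.0883), HLA-DOB at -0.29 (adjusted p = 0.312) and CTSS at -0.04 (adjusted p = 0.697, all from limma). Of the glioma line markers 4 of 6 tested rose, against 23.7% of all genes, with NES at 1.12, VIM at 0.35, SLC1A3 at 0.47 and GFAP at 1.11. SOX2 at 0.12 (adjusted p = 0.0754) and CD44 at -0.07 (adjusted p = 0.0732, both from limma) were not called. GFAP was low, at a mean of 0.467 FPKM in sh-NC and 1.18 in sh-TRAF2, and its groups overlapped. The leukocyte markers NCAM1 and CD68, also made by glial cells, were at -0.09 and -0.02 and not called, and KDR, an endothelial marker, was at 0.22 (adjusted p = 0.0495 from limma), a call lost without any 1 of the 6 samples.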
